A study of Homo sapiens with 4 samples.

Results

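The genes described here are 10 genes of the desmosome and the plakin family. They are the desmosomal cadherins DSG2 and DSC2, the armadillo proteins JUP, PKP2 and PKP3, and the plakins DSP, PLEC, PPL, EVPL and MACF1. They were chosen by protein family, by a choice made with the fold changes of these same libraries known, so the difference between the groups is given for them as a description and supports nothing. The tables list 58735 gene IDs, of which 12777 had a mean of at least 1 FPKM and were tested, and all 10 genes were among those tested. FPKM is a gene's read number scaled to its exon length and to the depth of the library. Folds and fractions of control are ratios of FPKM + 1 unless marked as FPKM ratios. For low genes these lie nearer to 1 than FPKM ratios do.

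The cells were HT8, a human line labelled as colon cancer, sampled as 4 RNA-seq libraries of total RNA. The genotype label PPDPF knockdown and the source name HT8-cas1 belong to 2 libraries, and the 2 control libraries carry the genotype label control and the source name HT8. The labels give no treatment, time, method of knockdown or selection of a clone, and none tells whether libraries of 1 group are separate cultures. The p-values therefore cover the spread among these 4 libraries, which may be technical. PPDPF had 281 and 283 FPKM in the libraries labelled knockdown, against 237 and 266 FPKM in control (fold 1.12, limma adjusted p = 0.0940), so the targeted mRNA was not lower and the groups are named by their labels only.

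Depth, as reads assigned to genes, was 17330674 and 17069628 in the libraries labelled knockdown and 17348315 and 19479906 in control. Of 7 epithelial markers KRT8, KRT19 and VIL1 rose, CDH1 fell, and EPCAM, KRT18 and CDX2 did not pass the test. Their sum was 3088 and 3065 FPKM in the libraries labelled knockdown, against 2578 and 2755 FPKM in control. The intestinal factor CDX2 had 41.8 and 39.2 FPKM in the libraries labelled knockdown, against 42.4 and 49.2 FPKM in control. The squamous markers TP63, KRT5, KRT14 and DSG3 were at 0.207 FPKM or less, KRT1 was listed at 0, and KRT6A had 0.772 and 0.604 FPKM in the libraries labelled knockdown, against 0 and 0.0348 FPKM in control. Summed over 7 genes, of which KRT10 alone was tested and rose 1.36-fold, the squamous markers had 15.3 and 13.4 FPKM in the libraries labelled knockdown, against 9.17 and 10.3 FPKM in control. Immune markers summed to 0.966 and 0.907 FPKM in the libraries labelled knockdown, against 1.59 and 1.86 FPKM in control. CD14, the only tested gene among them, had 0.860 and 0.907 FPKM in the libraries labelled knockdown, against 1.57 and 1.86 FPKM in control. On the FPKM + 1 scale it fell to 0.695 of control (limma adjusted p = 0.0335), and its FPKM ratio was 0.515. The part of these marker differences in the results on desmosomal genes was not tested. Summed over their lists, fibroblast markers reached 0.723 FPKM, endothelial markers 0.185 and cardiac markers 0.199 FPKM at most in any library. In bulk RNA, fewer cells of a type and less RNA per cell cannot be told apart.

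Desmosomes are spot-like junctions that fasten epithelial cells to each other and anchor their keratin filaments. In each cell the cadherins DSG and DSC reach out to the neighbouring cell, their tails bind the armadillo proteins plakoglobin (JUP) and the plakophilins (PKP), and these hold desmoplakin (DSP), which grips keratin. Desmoplakin belongs to the plakins, giant cytolinkers, among which plectin (PLEC) ties keratin to hemidesmosomes at the base of the cell, periplakin (PPL) and envoplakin (EVPL) line the membrane, and MACF1 links actin to microtubules. Simple epithelia such as that of the colon use DSG2 and DSC2 as their desmosomal cadherins, while DSG1, DSG3, DSC1 and DSC3 belong mainly to stratified epithelia.

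In the libraries labelled knockdown, 8 of the 10 genes rose, PKP2 fell, and PKP3 did not pass the test. A gene is said to rise or fall at a limma adjusted p under 0.05, two-sided and adjusted over all 12777 genes. Of all tested genes 16.8% rose and 13.0% fell. In all 10 genes the groups stood apart, with both libraries labelled knockdown above both controls in 8 and below them in 2. Across all tested genes this held for 35.9% upward and 33.8% downward. The median log2 fold change of the 10 was 0.32, against 0.0011 over all tested genes, and these counts are read as a description of genes already known to differ. Leaving out knockdown replicate 1, control replicate 1 or control replicate 2 left 5 genes that rose, and leaving out knockdown replicate 2 left 6. PKP2 did not pass the test in any of these 4 fits.

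**Figure D1:**
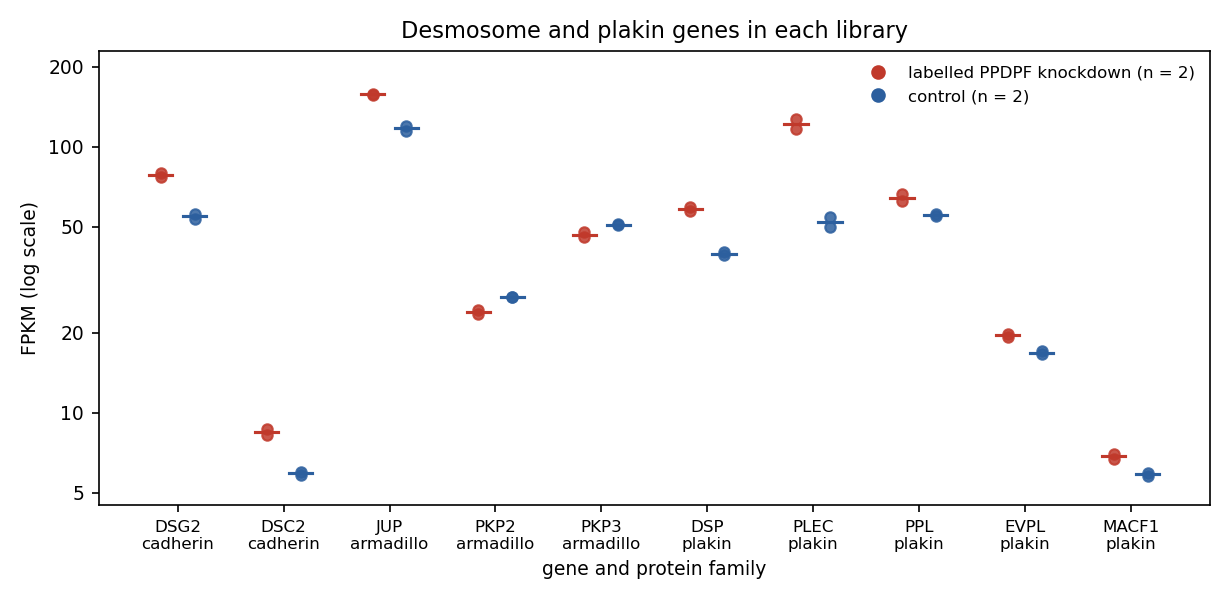
Level of each of the 10 genes in FPKM on a log scale, with the 2 libraries labelled PPDPF knockdown (red) left of the 2 control libraries (blue). Points are libraries and bars are group means. PLEC stands at 117 and 127 FPKM in the libraries labelled knockdown, against 49.99 and 54.6 FPKM in control.

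The desmosomal cadherins rose in step. DSG2 (ENSG00000046604, GRCh38 chromosome 18, 31498043 to 31549008, plus strand), the main desmoglein of simple epithelia, had 76.9 and 79.5 FPKM in the libraries labelled knockdown, against 53.8 and 56.1 FPKM in control. DSC2 (ENSG00000134755, chromosome 18, 31058840 to 31102522, minus strand), its desmocollin partner, had 8.71 and 8.24 FPKM in the libraries labelled knockdown, against 5.97 and 5.85 FPKM in control. Both genes were higher in each library labelled knockdown than in either control, and the groups did not overlap. The log2 fold change of FPKM + 1 was 0.50 (SE 0.037) for DSG2 and 0.46 (SE 0.052) for DSC2. Per length, DSG2 made up 89.8% to 90.6% of the summed level of both cadherins in the libraries labelled knockdown, a range that held both control libraries. The ratio of DSC2 to DSG2 was 0.113 and 0.104 in the libraries labelled knockdown and 0.111 and 0.104 in control, so the groups overlapped.

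The other desmosomal cadherins were scarcely detected. DSG3 was listed at 0 in each library, DSG1, DSC1 and DSC3 did not exceed 0.0414 FPKM, and DSG4 did not exceed 0.218 FPKM. DSG2 and DSC2 lie 0.443 Mb apart, so 28 of their 30 nearest tested genes were the same and each was a neighbour of the other. The median log2 fold change of these neighbours was 0.10 for both, and DSG2 stood above 27 and DSC2 above 26 of the 30. Around each, 6 neighbours rose, the other cadherin among them, 1 fell and 23 did not pass the test. The shares over all tested genes were 16.8% that rose and 13.0% that fell. Those of DSG2 reached 8.21 Mb to the left and 3.95 Mb to the right. B4GALT6, the nearest at 0.131 Mb, rose by a log2 fold change of 0.60, more than DSG2.

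Desmoplakin and plakoglobin rose, and the plakophilins PKP2 and PKP3 did not. DSP (ENSG00000096696, chromosome 6, 7541575 to 7586717, plus strand), the plakin that grips keratin in the plaque, had 57.3 and 59.6 FPKM in the libraries labelled knockdown, against 40.1 and 39.1 FPKM in control. JUP (ENSG00000173801, chromosome 17, 41754604 to 41786931, minus strand), which binds cadherin tails in desmosomes and also in adherens junctions, had 158 and 157 FPKM in the libraries labelled knockdown, against 115 and 120 FPKM in control. The groups were apart in both genes, by more than the spread within either group. The log2 fold change was 0.55 (SE 0.036) for DSP and 0.42 (SE 0.032) for JUP. The ratio of DSP to JUP was 0.363 and 0.380 in the libraries labelled knockdown and 0.349 and 0.327 in control, so the groups were apart here too, with DSP higher relative to JUP in the libraries labelled knockdown.

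PKP2 (ENSG00000057294, chromosome 12, 32790745 to 32896840, minus strand), a plakophilin that recruits desmoplakin to the membrane, had 24.3 and 23.6 FPKM in the libraries labelled knockdown, against 27.3 and 27.2 FPKM in control. PKP3 (ENSG00000184363, chromosome 11, 392614 to 404908, plus strand), the plakophilin with the broadest range of plaque partners, had 47.7 and 45.7 FPKM in the libraries labelled knockdown, against 50.7 and 51.1 FPKM in control. Both libraries labelled knockdown were below both controls in each gene, by a small step. The log2 fold change was -0.18 (SE 0.036) for PKP2 and -0.12 (SE 0.035) for PKP3. PKP3 passed the threshold as lower under quantile normalization, scaled to non-mitochondrial reads, among genes with a mean of at least 5 FPKM, and with voom.

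The makeup of the armadillo layer differed between the groups at the mRNA level. Per length, JUP made up 68.7% and 69.4% of the summed level of JUP, PKP2 and PKP3 in the libraries labelled knockdown, against 59.6% and 60.4% in control. The share of PKP3 was 20.7% and 20.2% in the libraries labelled knockdown, against 26.3% and 25.8% in control, and that of PKP2 was 10.6% and 10.4% in the libraries labelled knockdown, against 14.1% and 13.8% in control. The ratio of PKP2 to PKP3 was 0.510 and 0.515 in the libraries labelled knockdown and 0.538 and 0.532 in control, a log2 difference of -0.062. The groups did not overlap in any of these 4 values, which come from the same genes and are not separate results. Among single tested genes, both libraries labelled knockdown were above both controls in 35.9% and below them in 33.8%.

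Promoter sequence is shown for the 4 desmosomal genes that rose together and have an entry in RefSeq's promoter table on GRCh38.p14, as the window from 250 bases before the gene start to 50 after it. RefSeq listed 5 of the 10 genes, MACF1 being the other, and where a gene had 2 starts the upstream window is printed. Capitals mark the E-box CACCTG and the GC box GGGCGGG, each on either strand. E-boxes of this kind are known as sites where SNAI1 and ZEB1 repress the E-cadherin gene, and GC boxes as sites of Sp and Krüppel-like factors.
DSG2, chr18:31497927-31498226, plus strand: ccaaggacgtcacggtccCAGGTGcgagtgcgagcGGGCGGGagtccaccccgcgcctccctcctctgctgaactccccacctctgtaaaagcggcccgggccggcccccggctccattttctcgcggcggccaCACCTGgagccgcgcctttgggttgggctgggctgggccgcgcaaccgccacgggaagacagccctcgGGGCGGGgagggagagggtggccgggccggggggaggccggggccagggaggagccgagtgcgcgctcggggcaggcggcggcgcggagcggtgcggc
DSC2, chr18:31102372-31102671, minus strand: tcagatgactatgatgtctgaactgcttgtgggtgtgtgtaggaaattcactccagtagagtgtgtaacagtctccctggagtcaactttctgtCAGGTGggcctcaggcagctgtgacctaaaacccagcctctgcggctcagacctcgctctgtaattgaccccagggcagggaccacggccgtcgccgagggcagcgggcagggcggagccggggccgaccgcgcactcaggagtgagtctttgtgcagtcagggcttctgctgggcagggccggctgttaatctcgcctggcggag
JUP, chr17:41786662-41786961, minus strand: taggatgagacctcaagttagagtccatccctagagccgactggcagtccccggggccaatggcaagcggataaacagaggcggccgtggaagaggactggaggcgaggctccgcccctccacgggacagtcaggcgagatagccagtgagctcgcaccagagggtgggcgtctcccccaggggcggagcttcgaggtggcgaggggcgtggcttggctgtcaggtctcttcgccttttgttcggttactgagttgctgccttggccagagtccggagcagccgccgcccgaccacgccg
DSP, chr6:7541421-7541720, plus strand: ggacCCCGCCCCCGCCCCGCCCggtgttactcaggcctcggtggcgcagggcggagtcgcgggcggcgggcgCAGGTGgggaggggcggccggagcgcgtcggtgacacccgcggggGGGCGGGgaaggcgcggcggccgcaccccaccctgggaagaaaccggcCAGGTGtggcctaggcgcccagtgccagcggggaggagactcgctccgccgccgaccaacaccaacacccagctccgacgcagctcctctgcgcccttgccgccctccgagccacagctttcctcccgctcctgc

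The windows of DSG2 and DSP were rich in CpG, with 36 and 37 CpG in 300 bases and a GC content of 76.7% and 77.0%. DSC2 had 15 CpG at 60.7% GC and JUP 23 at 65.3%, and the median of 35116 RefSeq windows was 14 CpG at 58.7% GC. DSG2 and DSP held 2 E-boxes each, DSC2 held 1 and JUP 0, while the downstream window of JUP held 2 and that of DSC2 0. Of all windows 20.6% held at least 1. The GC box occurred 2 times in DSG2, 4 times in DSP, where some copies share bases, and 0 times in the printed windows of DSC2 and JUP, while the downstream window of DSC2 held 1 and that of JUP 0. Of all windows 33.1% held at least 1. The AP-1 motif TGANTCA and the grainyhead motif AACCGGTT had no match in these windows and occurred in 7.71% and 0.134% of all windows. A match is a string of letters only, and binding was not measured. SNAI1, which encodes a repressor that binds E-boxes, had 3.92 and 3.08 FPKM in the libraries labelled knockdown and 2.53 and 2.60 FPKM in control and missed the threshold (limma adjusted p = 0.0806), and ZEB1 was below 0.21 FPKM throughout.

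**Figure D2:**
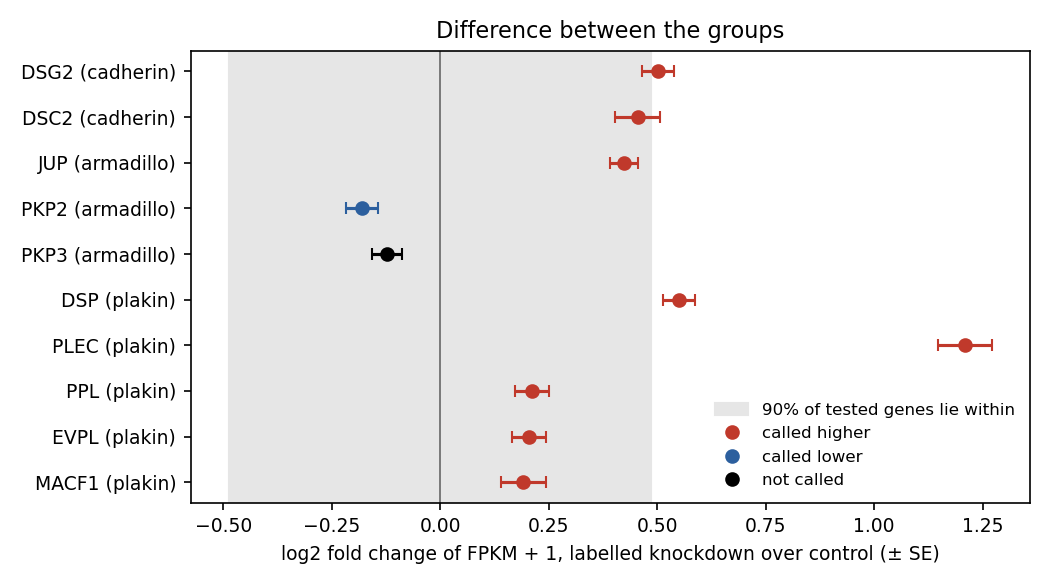
Log2 fold change of FPKM + 1, libraries labelled knockdown over control, with its standard error from the limma fit (n = 2 libraries per group). The grey band holds 90% of the tested genes, which lie within 0.49 of 0, and DSG2, DSP and PLEC lie beyond it.

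Plectin showed the largest difference of the 10 genes. PLEC (ENSG00000178209, chromosome 8, 143915147 to 143976734, minus strand) had 127 and 117 FPKM in the libraries labelled knockdown, against 49.99 and 54.6 FPKM in control. Each library labelled knockdown was above 100 FPKM and each control below 55. The log2 fold change was 1.21 (SE 0.061), and 99.1% of tested genes had a smaller one in size. In the order of levels PLEC stood in rank 2 after JUP in the libraries labelled knockdown. In control it stood in rank 4, where its range overlapped that of DSG2 above it and of PKP3 below it. Of the summed level of the 5 plakins, PLEC took 45.9% and 44.1% in the libraries labelled knockdown, against 29.8% and 31.7% in control.

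The other plakins differed less. PPL (ENSG00000118898, chromosome 16, 4882507 to 4960741, minus strand) had 66.2 and 62.7 FPKM in the libraries labelled knockdown, against 55.0 and 56.1 FPKM in control. EVPL (ENSG00000167880, chromosome 17, 76004502 to 76027452, minus strand), which pairs with periplakin in the cornified envelope of skin, had 19.9 and 19.2 FPKM in the libraries labelled knockdown, against 17.0 and 16.6 FPKM in control. MACF1 (ENSG00000127603, chromosome 1, 39081316 to 39487177, plus strand), a spectraplakin of the cytoskeleton rather than the junction, had 6.98 and 6.72 FPKM in the libraries labelled knockdown, against 5.80 and 5.95 FPKM in control. The groups were apart in all 3, with log2 fold changes of 0.21 (SE 0.039), 0.20 (SE 0.040) and 0.19 (SE 0.052) in that order.

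The ratio of PPL to EVPL was 3.34 and 3.26 in the libraries labelled knockdown and 3.23 and 3.38 in control, with overlapping groups. The call of EVPL was lost whichever library was left out, that of MACF1 likewise, and that of PPL without knockdown replicate 1 or either control replicate. With no filter on low values PPL, EVPL and MACF1 were not called. MACF1 also missed the threshold under quantile normalization, scaled to non-mitochondrial reads and with the replicate number as a block. The calls of DSG2, DSC2, JUP, DSP and PLEC held in all 12 alternatives.

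In the libraries labelled knockdown the levels ran from JUP at 158 FPKM through PLEC, DSG2, PPL, DSP, PKP3, PKP2, EVPL and DSC2 to MACF1 at 6.85 FPKM, and no 2 genes next to each other in this order had overlapping ranges. In control the order was JUP, PPL, DSG2, PLEC, PKP3, DSP, PKP2, EVPL, DSC2 and MACF1, from 117 to 5.87 FPKM. There PPL, DSG2, PLEC and PKP3, at means of 50.9 to 55.5 FPKM, overlapped each with the next, as did DSC2 and MACF1. Each gene rested on at least 1312 reads per library (DSC2) and at most 37354 (PLEC), which gives a counting error of 2.76% or less. Gene-level values do not separate isoforms, such as those of PLEC with different first exons. Genes that overlap 7 of the 10 held at most 22 reads in a library, or 0.978% of the reads of the gene they overlap.

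PLEC and PKP3 lie in chromosome stretches whose genes differed as a whole. Around PLEC, of the 30 nearest tested genes, which lie within 0.37 Mb of it, 25 rose and 1 fell, with a median log2 fold change of 0.58. Over all tested genes 16.8% rose and 13.0% fell. PLEC was 0.63 above that median and higher than 28 of the 30. Those above it were EPPK1, another plakin, at 1.22, and GPAA1, a subunit of the GPI transamidase, at 1.31. Next to PLEC on either side, EPPK1 had 14.1 and 12.8 FPKM in the libraries labelled knockdown, against 5.54 and 4.89 FPKM in control, NRBP2, a pseudokinase, rose 1.498-fold, and GRINA, a membrane protein of the TMBIM family, 1.40-fold. PARP10, an ADP-ribosyltransferase, had a fold of 1.11 and missed the threshold (limma adjusted p = 0.0903).

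Around PKP3, which lies near the end of the short arm of chromosome 11, 0 of 25 tested neighbours rose and 18 fell. The shares over all tested genes were 16.8% and 13.0%. The median log2 fold change of these neighbours was -0.46, and PKP3 was 0.34 above it. PKP3 thus stood higher than 24 of its 25 neighbours, while being lower itself in the libraries labelled knockdown than in control. The gene above it was MIR210, a microRNA gene at -0.057. Nearest to PKP3, on the FPKM + 1 scale, B4GALNT4, a glycosyltransferase, fell to 0.443 of control, and SIGIRR, an inhibitory receptor of the interleukin-1 family, to 0.542. IFITM3, an antiviral membrane protein, fell to 0.470, and ANO9, an anoctamin, to 0.765. B4GALNT4 had 1.97 and 1.71 FPKM in the libraries labelled knockdown, against 5.94 and 4.91 FPKM in control. Whether copy number or regulation of the stretch moved with PLEC or PKP3 was not tested.

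**Figure D3:**
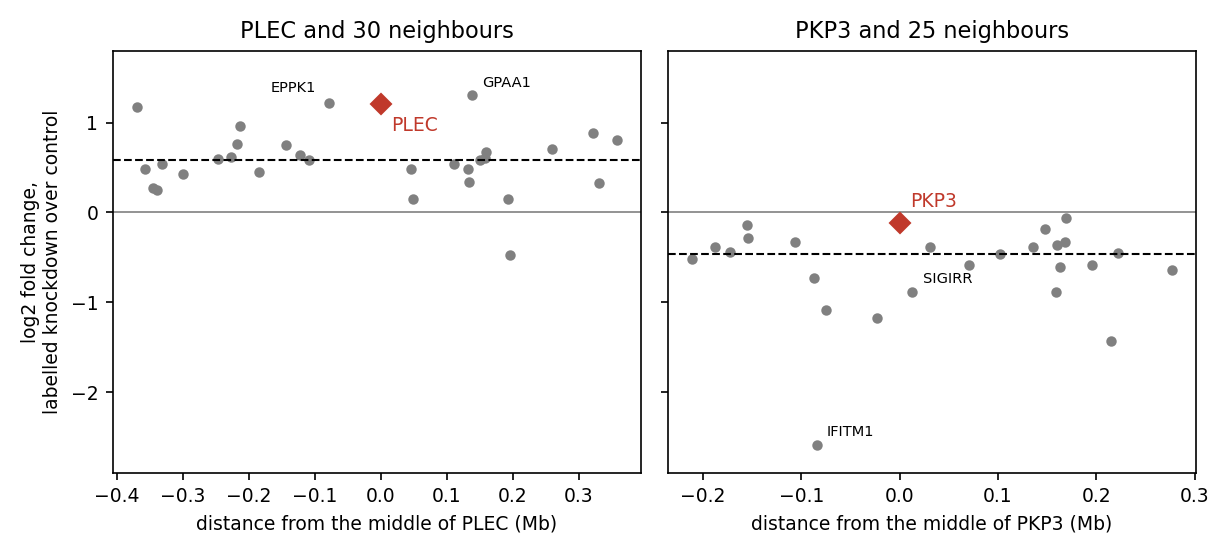
Log2 fold change, libraries labelled knockdown over control, of PLEC and its 30 nearest tested genes (left) and of PKP3 and its 25 (right), by distance in Mb. Dashed lines are the neighbours' medians, 0.58 for PLEC and -0.46 for PKP3, and both genes lie above their line.

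The other 8 genes lie in surroundings with smaller medians, between -0.12 and 0.10. The 30 neighbours span unlike distances, up to 13.1 Mb from PKP2 but only 0.676 Mb from EVPL. DSP stood above all 30 of its neighbours, whose median was 0.025. JUP stood 0.54 above its neighbours' median of -0.12, higher than 26 of 30. Of the neighbours of JUP, 6 rose and 10 fell, beside 16.8% and 13.0% of all tested genes. The acidic keratin cluster is among these neighbours. Its keratins KRT10, KRT19 and KRT20 rose, KRT17 fell and KRT13 did not pass the test. PKP2 was lower than 28 of its 30 neighbours, whose median was -0.011. PPL, EVPL and MACF1 were 0.20, 0.11 and 0.15 above their neighbours' medians, with 3, 9 and 8 neighbours above them.

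**Figure D4:**
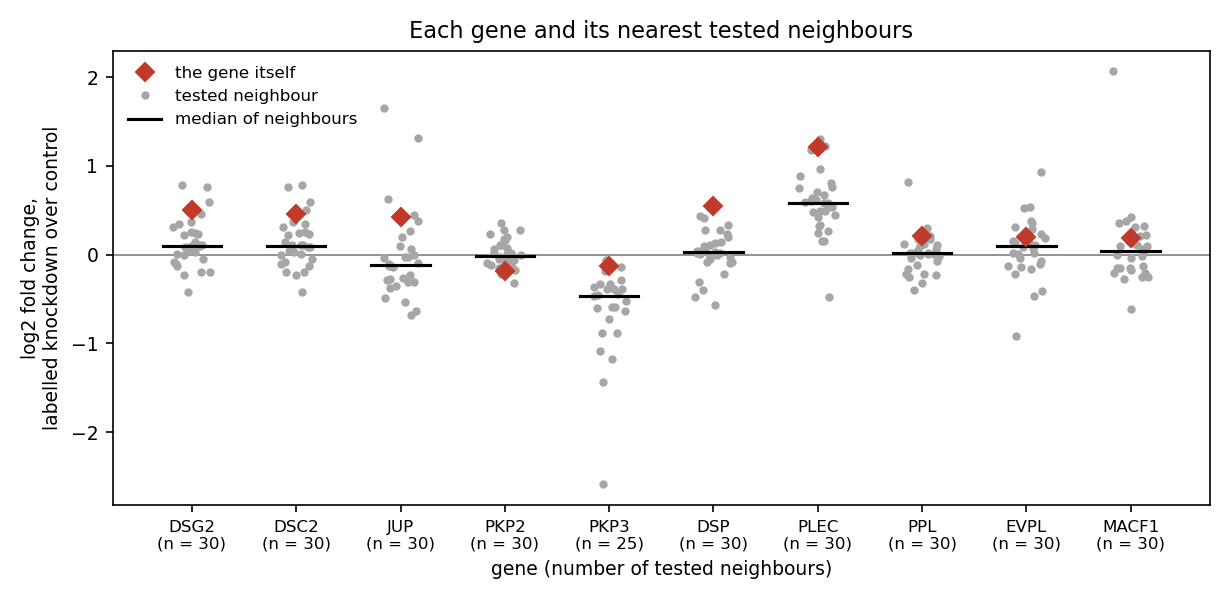
Log2 fold change, libraries labelled knockdown over control, of each gene (red diamond), of its nearest tested neighbours on the chromosome (grey) and their median (black line). Neighbour medians are 0.58 around PLEC and -0.46 around PKP3, and between -0.12 and 0.10 elsewhere.

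Genes that work with desmosomes and plakins were taken from 9 lists, of which 48 genes were tested, 18 rose, 8 fell and 22 did not pass the test. Their median log2 fold change was 0.096. Over all tested genes 16.8% rose and 13.0% fell. Among other desmosomal genes, PERP, a membrane protein needed for stable desmosomes, had 200 and 207 FPKM in the libraries labelled knockdown, against 114 and 114 FPKM in control. It rose 1.77-fold, with the groups far apart (limma adjusted p = 0.000685). PKP4, a plakophilin-like protein found mainly at adherens junctions, fell to 0.802 of control (limma adjusted p = 0.0172). PKP1, DSG1, DSG3, DSG4, DSC1, DSC3 and CDSN were under the filter of 1 FPKM. PKP1, not tested for that reason, had 0.933 and 0.912 FPKM in the libraries labelled knockdown, against 0.302 and 0.410 FPKM in control. Of both other plakins EPPK1 rose 2.33-fold (limma adjusted p = 0.00136), and DST, a relative of plectin, had a fold change of 1.11 and missed the threshold (limma adjusted p = 0.362).

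The hemidesmosome list, whose receptors plectin anchors to keratin, counted 4 genes that rose and 1 that fell out of 7 tested. The shares over all tested genes were 16.8% and 13.0%. The median log2 fold change of the list was 0.32. COL17A1, a transmembrane collagen of hemidesmosomes, had 86.6 and 89.3 FPKM in the libraries labelled knockdown, against 39.5 and 39.5 FPKM in control, a rise of 2.20-fold (limma adjusted p = 0.000597). LAMB3, a laminin chain of the basement membrane, rose 1.90-fold (limma adjusted p = 0.00110). ITGB4, the integrin subunit that plectin binds, rose 1.245-fold (limma adjusted p = 0.00262), and its partner ITGA6 had a fold change of 1.05 and missed the threshold (limma adjusted p = 0.115). LAMA3, an alpha chain of laminin, had 13.4 and 13.4 FPKM in the libraries labelled knockdown and 13.3 and 13.3 FPKM in control. CD151, a tetraspanin that lies 0.438 Mb from PKP3, fell to 0.797 of control (limma adjusted p = 0.00322).

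Keratins form the filaments that desmosomes and plakins anchor. Of the 7 tested keratins in the partner list 3 rose and 1 fell, beside 16.8% and 13.0% of all tested genes. KRT19 rose 1.30-fold, KRT8 1.16-fold and KRT20, a keratin of differentiated intestinal cells, 2.49-fold (limma adjusted p = 0.00306, 0.0195 and 0.00551). KRT17, a keratin of stressed and basal epithelia, fell to 0.625 of control (limma adjusted p = 0.0129). KRT20 had 2.61 and 2.94 FPKM in the libraries labelled knockdown, against 0.339 and 0.717 FPKM in control, an FPKM ratio of 5.25. KRT17 had 1.74 and 1.49 FPKM in the libraries labelled knockdown, against 2.89 and 3.49 FPKM in control, an FPKM ratio of 0.506. KRT18, the partner of KRT8, had 713 and 709 FPKM in the libraries labelled knockdown and 627 and 690 FPKM in control and missed the threshold (limma adjusted p = 0.160). KRT5, KRT14 and KRT23 were under the filter.

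Adherens junction genes numbered 11 tested, of which 7 rose and 3 fell, beside 16.8% and 13.0% of all tested genes. Their median log2 fold change was 0.19. CTNND1, the p120 catenin, rose 1.17-fold, CTNNB1, beta-catenin and a close relative of JUP, 1.14-fold, and the adhesion receptor NECTIN1 1.21-fold (limma adjusted p = 0.00730, 0.0150 and 0.00963). Its relative NECTIN2 fell to 0.832 of control (limma adjusted p = 0.00627). E-cadherin, CDH1, had 107 and 111 FPKM in the libraries labelled knockdown, against 119 and 121 FPKM in control, and fell to 0.912 of control (limma adjusted p = 0.0377). CDH1 falls outside the rule for named genes and was chosen after its values were seen. Whether its call, or those of the markers VIL1, KRT10 and CD14, held in the alternatives was not examined.

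The calls in the remaining lists stand beside the 16.8% of all tested genes that rose and the 13.0% that fell. Of 6 tested microtubule partners of MACF1, MAPRE3, a plus-end binding protein, rose 1.41-fold (limma adjusted p = 0.0234), and the other 5 did not pass the test. Among 6 tested transcription factors of epithelial junctions, GRHL2, a grainyhead factor, fell to 0.812 of control (limma adjusted p = 0.0156). Its relative GRHL3 had a fold change of 1.10 and missed the threshold (limma adjusted p = 0.202). OVOL1, a zinc finger repressor, rose 1.40-fold (limma adjusted p = 0.0495), and GRHL1, SNAI2, TWIST1, ZEB1 and ZEB2 were under the filter. GRHL1, not tested for that reason, had 1.17 and 1.11 FPKM in the libraries labelled knockdown, against 0.679 and 0.710 FPKM in control. Of 6 kinases, proteases and modifiers of desmosomal proteins, PRMT1, an arginine methyltransferase, fell to 0.755 of control (limma adjusted p = 0.00187). In the cornified envelope list the crosslinking enzyme TGM1 was the only tested gene and missed the threshold (fold 0.964, limma adjusted p = 0.636), and TGM3, IVL, LOR and SPRR2A were listed at 0. The calls of PKP4, KRT8, KRT17, CTNNB1, NECTIN1, MAPRE3, GRHL2 and OVOL1 were lost when at least 1 library was left out, and that of KRT19 with no filter.

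**Figure D5:**
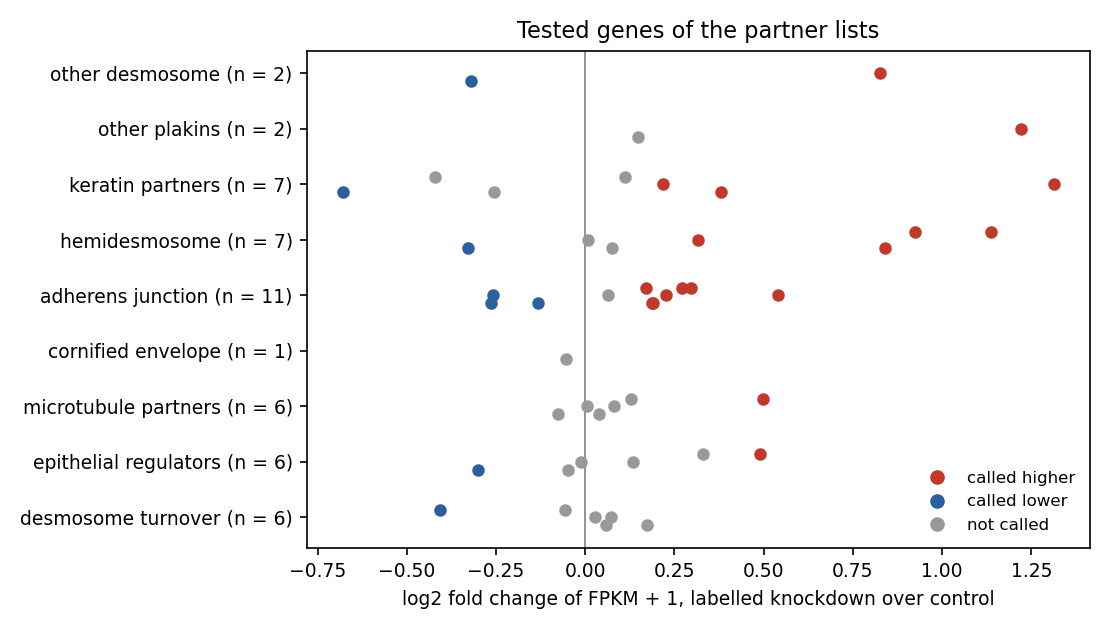
Log2 fold change of FPKM + 1, libraries labelled knockdown over control, of the 48 tested genes in 9 lists of partners, with 1 point per gene (18 called higher in red, 8 called lower in blue). PERP, EPPK1, KRT20, COL17A1 and LAMB3 are among the points above 0.8.

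The protein-coding genes whose values over the 4 libraries lay nearest to those of the 3 genes with the largest differences were found by the root mean square distance between log2 values centred on each gene's mean. For PLEC these were TM4SF1, a tetraspanin-like surface protein, at a distance of 0.041, and TNFAIP3, a feedback inhibitor of NF-kB, at 0.043. For DSP they were MYO1A, the brush border myosin, at 0.0049, and RAP1GAP2, a GTPase-activating protein, at 0.0063. For DSG2 they were GRINA at 0.011 and FBLIM1, a filamin-binding protein, at 0.011. With 4 libraries in 2 groups, such a distance mostly measures a like difference between the groups.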

How the data were processed

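The authors deposited FPKM per gene, 1 table per library, per the file headers. HISAT2 2.0.5 and the build hg18 are named in the submitters' processing notes; for the counter, the strand setting and any filter, the sources used here name nothing. All 58735 gene IDs matched GENCODE 29 (GRCh38), from which symbols, coordinates and exon lengths were taken. FPKM multiplied by exon length gave whole reads for 100% of values above 0 (within 0.01 of a read), and limma-voom on those reads called 2502 genes higher and 2709 lower. Genes with a mean of at least 1 FPKM were tested on log2(FPKM + 1), which understates changes of low genes, with limma-trend (limma 3.58.1, R 4.3.3), group as the only term, 2 residual degrees of freedom and Benjamini-Hochberg adjustment over 12777 genes. Libraries of a group differed by more than sampling noise (chi-square per gene 2.31 labelled knockdown, 2.43 control) and counted separately.

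Neighbours of a gene were the 15 nearest tested genes on each side. Named are all 10 genes, up to 4 called genes per list by smallest p and those under the filter, the 2 nearest neighbours on each side of PLEC and PKP3, and 2 nearest profiles for each of 3 genes; others were chosen after their values were seen. The values of 1 listed gene are not reported here. The genes, lists and motifs were chosen with earlier results of these data known. Alternatives were quantile normalization, no filter, a mean of at least 5 FPKM, a pseudocount of 0.1, the replicate block, each library left out, voom and scaling to non-mitochondrial reads. Figures were drawn with matplotlib 3.10.9.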

Additional observations from a re-analysis of the deposited data

How the results depend on the processing

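None of the 10 genes changed direction in any of the 12 alternatives, in which PLEC ranged from 1.15 to 1.27, DSP from 0.50 to 0.58 and PKP3 from -0.16 to -0.093 on the log2 scale; the cause of each lost or gained call was not tested. Of the 10 genes, 5 rose with no filter on low values. Those that fell numbered 2 under quantile normalization, with a mean of at least 5 FPKM, with voom on total reads or on the authors' divisor (an alternative chosen after seeing the data), and scaled to non-mitochondrial reads. With 1 library left out, 5 to 6 rose and 0 fell, and of the listed partners 10 to 15 rose and 3 to 6 fell. With no filter 11 partners rose and 3 fell. Of all tested genes, 1134 rose and 734 fell with no filter, 1141 to 1345 rose and 775 to 919 fell with 1 library left out, and 2709 fell with voom on total reads. The replicate number did not pair the libraries (correlation of deviations -0.0021), and as a block it left 7 of the 10 genes that rose and 1 that fell, with 1899 and 1405 over all genes.

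Neighbour medians moved by more than the spread between libraries for most genes. Within 2 Mb they were 0.17 for DSG2 and DSC2, -0.0056 for JUP, -0.042 for PKP2, -0.52 for PKP3, 0.51 for PLEC, 0.020 for EVPL and 0.0040 for MACF1. Among genes with a mean of at least 5 FPKM they were 0.018 for DSG2 and DSC2, -0.030 for JUP, -0.047 for PKP2, -0.59 for PKP3 and -0.063 for MACF1. The log2 difference in the ratio of DSC2 to DSG2 ran from -0.055 to 0.073 and that of PPL to EVPL from -0.033 to 0.032 with 1 library left out, so neither has a direction. The planned quasi-likelihood count test with TMM scaling on the recovered reads was not run. With 2 libraries a group and 2 residual degrees of freedom, passing depended on a gene's standard error as well as its difference. CDH1 passed at a log2 fold change of -0.13 (SE 0.033), while SNAI1 missed the threshold at 0.33 (SE 0.11). The calls of PKP2, PPL, EVPL and MACF1, with differences near 0.2 in size on the log2 scale, were lost in some of the alternatives.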
